A study of Homo sapiens with 5 samples.

Results

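Promoter sites that carried an ATF3 peak in HCT116 cells treated with camptothecin (CPT), and in neither of the other ATF3 libraries, were examined. HCT116 is a human colorectal cancer cell line. The sites were chosen by the deposited peak lists alone. A site was a peak of the ATF3-CPT library on chromosomes 1 to 22 or X, with its centre within 2 kb of the transcription start site (TSS) of a protein-coding transcript, and with no base in common with a peak of the ATF3-Ctrl or the ATF3-KO library. Of 70702 ATF3-CPT peaks, 70128 lay on these chromosomes and 15372 of those lay in promoters. No ATF3-Ctrl peak shared a base with 7914 of the promoter peaks, and 89 of these overlapped an ATF3-KO peak, which left 7825 sites, or 11.2% of the ATF3-CPT peaks on these chromosomes. They are called CPT-only promoter sites below, a name that refers to the lists and not to a test of a change. Of these sites, 5778 (73.8%) had their centre within 2 kb of the 5′ end of a protein-coding gene. The others lay only near other starts of protein-coding transcripts, many of them inside genes.

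For the ATF3 libraries, wild-type HCT116 cells were kept in DMSO, the solvent, for ATF3-Ctrl or exposed for 4 h to CPT at 1.5 μM for ATF3-CPT, and ATF3-KO cells were kept in DMSO. The ATF3-KO cells carried a deletion in exon 3 on both ATF3 alleles and were derived as a single clone. A p53 antibody was used on cells with wild-type p53 after the same CPT exposure (p53-CPT) and on p53-KO cells kept in DMSO. All chromatin was cross-linked with DSG and formaldehyde, and each condition had 1 library without a replicate. No library of CPT-treated ATF3-KO cells was analysed here, so that dependence of a CPT-only site on ATF3 protein after CPT could not be examined. The rule used the ATF3-CPT and ATF3-Ctrl lists, and the number and the scores of the sites are therefore descriptions.

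ATF3 belongs to the ATF/CREB family of basic leucine zipper (bZIP) factors. It is expressed at a low level in resting cells and induced by many stresses, and it binds as a homodimer or with partners of the JUN, ATF and C/EBP families. CPT traps topoisomerase I on DNA and breaks replicating and transcribed DNA, which activates p53. Dimers of bZIP factors recognise the ATF/CRE element, the closely related AP-1 element, or a composite of the C/EBP and ATF elements.

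The sequences of the highest-scoring CPT-only promoter sites with each bZIP element are shown because the sites differed in which element they held. Each line gives 30 bases around the element in GRCh37 (hg19), 5′ to 3′ on the strand named, with the element in capitals. In the 5 highest-scoring sites with the ATF/CRE element TGACGTCA, the element lay within 24 bp of the peak centre.
CBX8, chr17:77770871-77770900, plus strand: tactctcccgcTGACGTCAgttctcctccc
SHISA5, chr3:48514535-48514564, plus strand: tctcctccagaTGACGTCAgccacaggaag
METTL1, chr12:58165624-58165653, plus strand: cccccaaaaacTGACGTCAcccatctgatc
TSC22D2, chr3:150125997-150126026, plus strand: gggcggagcggTGACGTCAcgacgccggtg
CREM, chr10:35484769-35484798, plus strand: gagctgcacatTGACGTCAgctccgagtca

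The AP-1 element TGAGTCA was the most frequent bZIP element of these sites. It is shown for 3 of the highest-scoring sites and for sites at genes of the AP-1 family (FOSL1), of the p53 targets (CDKN1A and GADD45A) and of the integrated stress response (TRIB3).
CPA4, chr7:129932974-129933003, minus strand: catacagtggcTGAGTCAagctgtatttat
TAGLN3, chr3:111721413-111721442, minus strand: ctacacagtccTGAGTCAtcttcctcctcc
PLEKHG4, chr16:67311356-67311385, plus strand: agatgggccccaTGAGTCActgctcagtcc
FOSL1, chr11:65666845-65666874, minus strand: gtcacggcggcTGAGTCAcccggggcgtcc
CDKN1A, chr6:36648298-36648327, minus strand: gggagtagtgaTGAGTCAgtttcctgcaag
GADD45A, chr1:68149186-68149215, minus strand: acaatctagccTGAGTCAtcatttggcgat
TRIB3, chr20:344055-344084, minus strand: ctcacactggcTGAGTCActctgcatgtca

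The C/EBP-ATF composite TGATGCAA was rare, and the pair with the highest scores is shown.
KLHL41, chr2:170365838-170365867, minus strand: ctctgaattaaTGATGCAAaggtcaagaat
ANXA2, chr15:60692282-60692311, minus strand: tttctttagcaTGATGCAAagactggtgat

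A whole peak is shown for TP53BP2, a gene with no KO-free ATF3-Ctrl peak from 20 kb upstream to its end. The peak held none of the bZIP elements in exact form.
TP53BP2, chr1:224003677-224003801, plus strand: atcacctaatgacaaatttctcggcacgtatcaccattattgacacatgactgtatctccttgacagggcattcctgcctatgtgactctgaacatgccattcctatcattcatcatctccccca

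Most CPT-only promoter sites were weak. The findPeaks score, which counts tags of distinct positions and is not scaled by library size, ranged from 9 to 101 and had a median of 13 (quartiles 10 and 17). Scores of 20 or more were found at 1402 sites (17.9%) and scores of 40 or more at 118 sites (1.51%). The 6358 promoter sites of the same library that were also bound under DMSO had a median score of 24 (quartiles 16 and 40), and the 35292 distal sites seen only after CPT had a median of 13 (quartiles 10 and 18). The normalized tag count, which is given per 10000000 tags, had medians of 7.8, 16.2 and 8.4 in these sets.

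**Figure D1:**
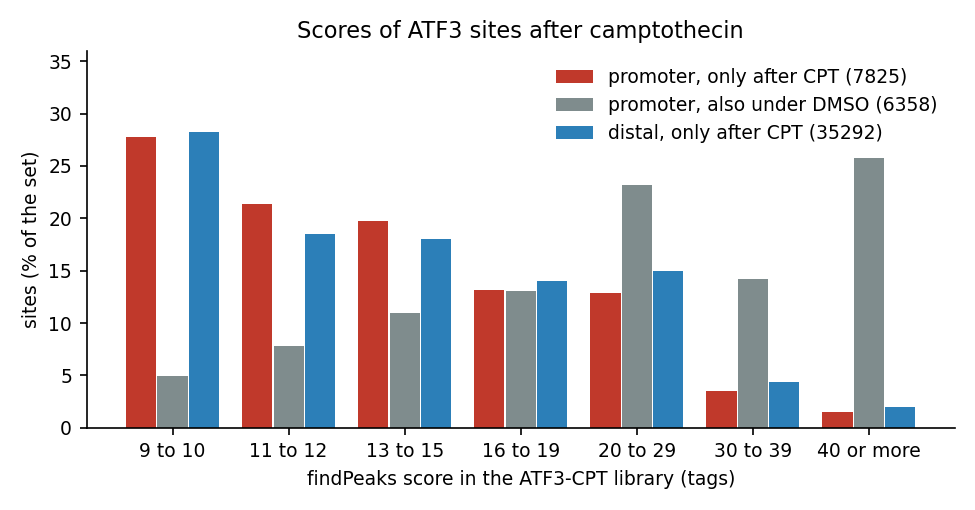
Share of sites (% of each set, vertical axis) in 7 ranges of the findPeaks score (tags, horizontal axis) for 7825 promoter sites seen only after CPT, 6358 promoter sites also bound under DMSO and 35292 distal sites seen only after CPT. The first and the last set have most of their sites at scores under 16, whereas the shared promoter sites have the largest shares at 20 to 29 and at 40 or more.

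The libraries set a limit on the weak sites. The ATF3-CPT library held 15457013 tags and the ATF3-Ctrl library 12947516 tags, and both lists began at 9 tags. When the scores were multiplied by this depth ratio of 0.838, 2179 CPT-only promoter sites (27.8%), those with scores of 9 or 10, fell under the ATF3-Ctrl threshold. For these sites a peak of equal strength was expected to stay under the limit of the DMSO list. Counting error can move a single peak to either side of that limit, and the 1672 sites (21.4%) with 11 or 12 tags were next above it. After the same scaling, 1050 sites (13.4%) had at least 2 times the threshold and 82 sites at least 4 times. Tags within peaks made up 12.8% of ATF3-CPT, 5.60% of ATF3-Ctrl and 0.56% of ATF3-KO tags, and with 1 library per condition an effect of CPT and a difference in the yield of the precipitation cannot be told apart.

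Among the KO-free ATF3-CPT peaks of promoters, 55.2% (95% Wilson interval 54.4 to 56.0) were CPT-only, and among the distal peaks 65.1% (64.7 to 65.5) were. By chromosome, the CPT-only share of promoter peaks was highest on chromosome X (63.6%). In the other direction, 1724 of 8089 KO-free ATF3-Ctrl promoter peaks (21.3%) shared no base with an ATF3-CPT peak.

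The highest-scoring CPT-only promoter sites lay next to peaks of the untreated cells. The highest score, 101 tags (exact 95% Poisson interval 82.3 to 123, normalized tag count 91.9), was found 1983 bp downstream of a TSS of NSMCE2, a SUMO ligase subunit of the SMC5/6 complex. This site lay in an intron, at -34308 bp from the nearest gene 5′ end (negative upstream). Neither ATF3-Ctrl nor ATF3-KO had a peak there, but an ATF3-Ctrl peak with 60 tags lay 208 bp away. The site with the second highest score, 86 tags, lay 47 bp upstream of the TSS of JUND, which encodes an AP-1 subunit, and 22 bp from an ATF3-Ctrl peak with 58 tags. At CPA4, a carboxypeptidase gene, the site had 85 tags and the ATF3-Ctrl neighbour at 66 bp had 61. PLEKHG4 had 81 tags beside an ATF3-Ctrl peak of 13 tags at 27 bp, and CD55, a regulator of complement, had 70 tags beside one of 22 tags at 44 bp. Of the 20 highest-scoring sites, 17 had an ATF3-Ctrl peak within 500 bp. At 2 of these 17, GUK1 among them, that ATF3-Ctrl peak overlapped an ATF3-KO peak. The exceptions to the proximity were TAGLN3 (82 tags, nearest ATF3-Ctrl peak at 2808 bp), TP53BP2 (77 tags, 39753 bp) and DMAC2L (60 tags, 10802 bp). Several of the 20 sites lay near a TSS but far from any gene 5′ end, for example WWTR1 (101703 bp) and TP53BP2 (29917 bp).

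**Figure D2:**
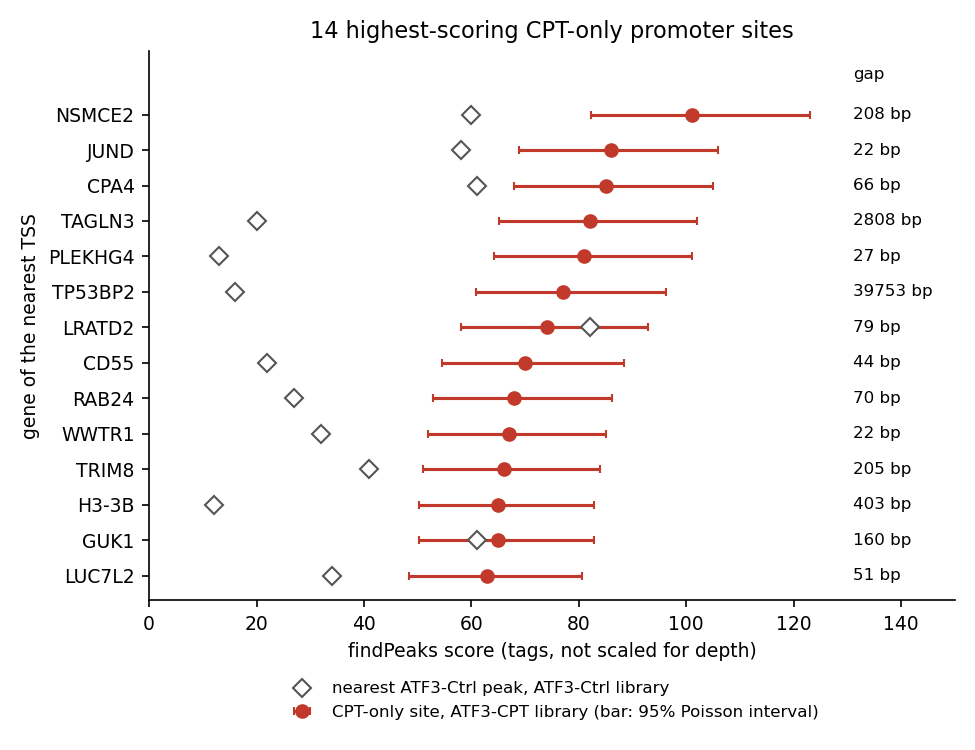
findPeaks score in tags (horizontal axis) of the 14 highest-scoring CPT-only promoter sites, named by the gene of the nearest TSS, as filled circles with exact 95% Poisson intervals, and of the ATF3-Ctrl peak nearest to each as open diamonds. The gap in bp between the peaks is printed at the right, and it is 500 bp or less for 12 of the 14 sites. At LRATD2 the ATF3-Ctrl peak has the higher score (82 tags against 74).

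Over all sites, 162 (2.07%) had an ATF3-KO peak within 500 bp. Proximity to an ATF3-Ctrl peak was less frequent over all CPT-only promoter sites. The gap to the nearest ATF3-Ctrl peak had a median of 6959 bp. An ATF3-Ctrl peak lay within 200 bp of 9.01% of the sites, within 500 bp of 19.3% and within 2000 bp of 37.6%, and 44.5% had none within 10 kb. The peak caller kept the centres of peaks of the ATF3-CPT library at least 248 bp apart. At 432 sites (5.52%) an ATF3-Ctrl peak centre was closer than that, and for 395 of these the ATF3-Ctrl peak itself shared no base with any ATF3-CPT peak. Such pairs made up 12.2% of the 1402 sites with scores of 20 or more and 28.8% of the 118 sites with scores of 40 or more. Whether these pairs are separate sites or 1 site with a displaced centre was not tested.

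The limits of the rule passed through similar peaks. The CPT-only sites closest inside the 2 kb limit lay at FXYD7 (1999 bp, 10 tags), TBCD (1998 bp, 14 tags) and CRYBG2 (1998 bp, 11 tags), and the peaks closest outside it lay at DNAJC12 (2002 bp, 18 tags), METTL2A (2002 bp, 10 tags) and SP9 (2003 bp, 9 tags). The sites at SEC24A (20 tags), B9D1 (19 tags) and INTS10 (18 tags) directly adjoined ATF3-Ctrl peaks of 12, 11 and 9 tags. The promoter peaks of NCEH1 (38 tags), TRAPPC9 (22 tags) and UBR2 (19 tags) overlapped ATF3-Ctrl peaks of 9 tags each by 1 bp and were counted as shared.

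CPT-only promoter sites lay farther from the TSS than shared promoter sites. The median distance of the peak centre from the nearest TSS was 269 bp (quartiles 60 and 838) for the CPT-only sites and 115 bp (quartiles 34 and 520) for the shared sites. The share within 500 bp of the TSS was 62.5% (4887 of 7825) and 74.3% (4726 of 6358), a difference of -11.9 percentage points (95% interval -13.4 to -10.4, adjusted p = 5.9e-51 by Fisher's exact test). The share downstream of the TSS was 41.8% and 33.8%, a difference of 8.07 points (6.48 to 9.67, adjusted p = 1.6e-22 by the same exact test). These and the further Fisher tests, 18 in all and two-sided, compared numbers of peaks of 1 library and were adjusted together by the Benjamini-Hochberg method. Their p-values measure the sampling of peaks and not the spread between cultures.

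**Figure D3:**
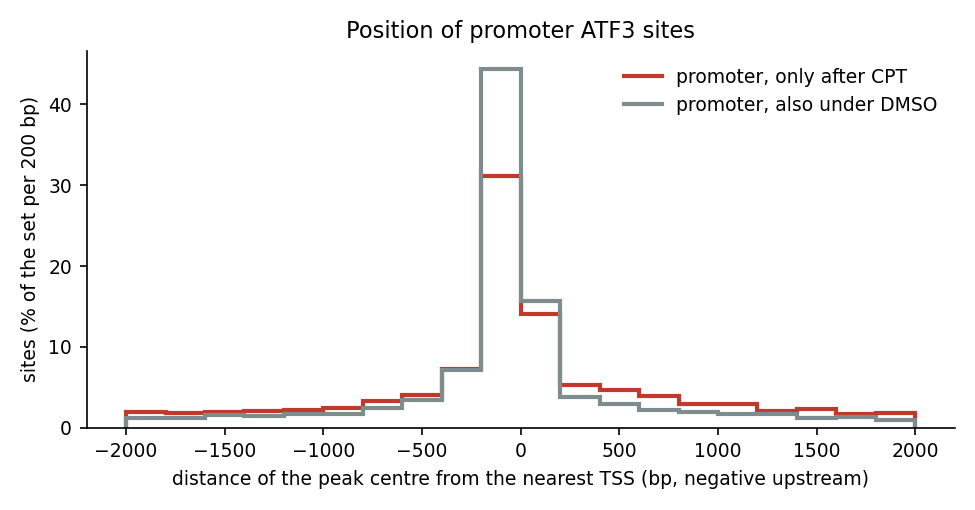
Share of sites (% of the set in each 200 bp, vertical axis) against the distance of the peak centre from the nearest TSS (bp, negative upstream, horizontal axis) for promoter sites seen only after CPT and promoter sites also bound under DMSO. Both sets are highest in the 200 bp upstream of the TSS, and the CPT-only sites are lower there and higher over most of the flanks, downstream in particular.

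The centre of a CPT-only site fell in an intron in 45.0% of cases, between genes in 30.2%, in a UTR in 19.1% and in a coding exon in 5.64%. CpG-rich sequence, with a GC content over 50% and an observed to expected CpG ratio over 0.6 in 500 bp, surrounded 50.5% of the CPT-only sites, 63.4% of the shared promoter sites and 2.58% of the distal CPT-only sites. The CPT-only promoter sites fell into a CpG-rich set of 3955 with a median distance of 95 bp from the TSS and a set of 3870 outside such sequence with a median distance of 756 bp. An exact AP-1 element was present in 5.59% (4.91 to 6.35) of the former and in 34.9% (33.4 to 36.4) of the latter. The median scores of these sets were 12 and 13 tags.

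The ATF/CRE element was less frequent in CPT-only promoter sites than in shared promoter sites. TGACGTCA occurred in 99 CPT-only sites (1.27%) and in 346 shared sites (5.44%), a difference of -4.18 points (-4.80 to -3.58, adjusted p = 3.5e-46 by Fisher's exact test). Among peaks with scores of 12 to 20 in both sets the shares were 1.20% and 1.77%, and this difference did not pass the threshold (-0.575 points, -1.32 to 0.0731, adjusted p = 0.121 by Fisher's exact test). The composite TGATGCAA occurred in 32 CPT-only sites (0.409%) and in 227 shared sites (3.57%), a difference of -3.16 points (-3.66 to -2.70, adjusted p = 5.7e-47 by the same exact test), and this difference was similar, -2.95 points, at scores of 12 to 20. Windows of equal width 1000 bp to the side of the CPT-only sites held the ATF/CRE element in 0.0383% and the composite in 0.179% of cases.

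The AP-1 element, TGAGTCA or its reverse complement TGACTCA, occurred in 1571 CPT-only promoter sites (20.1%, 19.2 to 21.0) and in 1.73% of the windows to the side. The share was 18.2% in shared promoter sites, a difference of 1.88 points (0.576 to 3.17, adjusted p = 0.00752 by Fisher's exact test). The difference was larger when the ATF3-CPT scores were held to the same range. Such a range made the sets alike only in the score after CPT. The rule split the sets by the ATF3-Ctrl list, so shared sites in the range also had a listed peak of at least 9 tags under DMSO. This limit applies to all comparisons with shared sites at scores of 12 to 20. At scores of 12 to 20, AP-1 was found in 19.3% of CPT-only and 4.91% of shared promoter sites, a difference of 14.4 points (12.8 to 16, adjusted p = 4.5e-55 by the same exact test). Within 500 bp of the TSS and without regard to score, AP-1 was found in 11.2% of CPT-only and 11.5% of shared sites, a difference of -0.38 points (-1.65 to 0.888). When both limits were set together, a choice made after the data had been seen, the shares were 10.3% and 2.80%, a difference of 7.50 points (5.99 to 9.0, adjusted p = 3.1e-20 by Fisher's exact test).

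**Figure D4:**
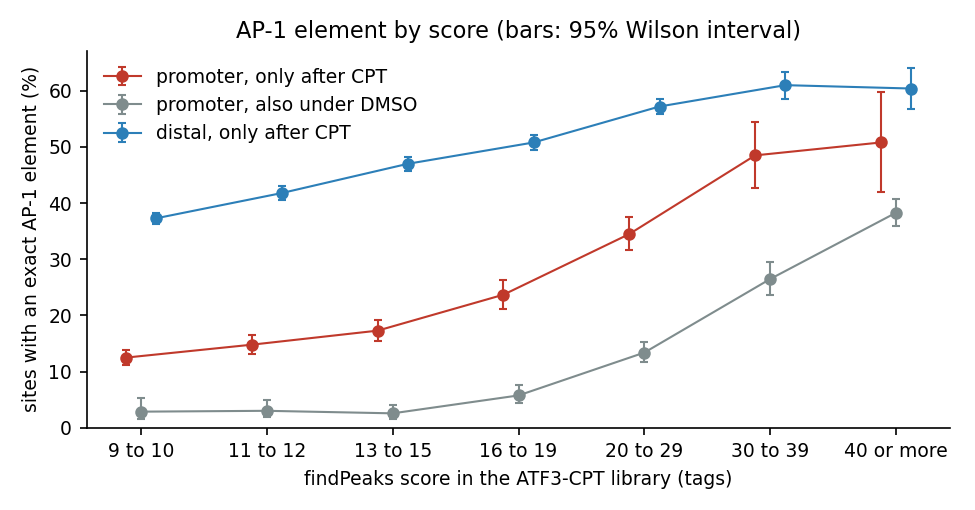
Share of sites with an exact AP-1 element (%, vertical axis, with 95% Wilson intervals) in 7 ranges of the findPeaks score (tags, horizontal axis) for promoter sites seen only after CPT, promoter sites also bound under DMSO and distal sites seen only after CPT. In every set the share is larger at scores of 40 or more than at scores of 9 and 10, and in every score range the CPT-only promoter sites lie between the shared promoter sites and the distal CPT-only sites.

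Among CPT-only promoter sites the AP-1 share was 12.5% at scores of 9 and 10, 34.5% at scores of 20 to 29 and 50.8% at scores of 40 or more. In shared promoter sites of the same score ranges it was 2.88%, 13.4% and 38.3%. The AP-1 elements of the CPT-only sites lay close to the peak centre, with a median distance of 14 bp, and 74.3% of the sites with an element had it within 25 bp. The median distance was 13.5 bp for the ATF/CRE element and 25.5 bp for the GC box GGGCGG. Any of the bZIP elements in exact form was found in 1698 CPT-only sites (21.7%), whose median score was 15, and the sites without any had a median score of 12. No site held both the ATF/CRE and the AP-1 element.

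Against the distal sites seen only after CPT, the CPT-only promoter sites had fewer AP-1 elements (20.1% against 46.2%, a difference of -26.2 points, -27.2 to -25.1) and more GC boxes (29.3% against 4.78%, 24.6 points, 23.5 to 25.6). The adjusted p of both, by Fisher's exact test, was smaller than the program could hold. The 2 kb limit of the rule itself separated these sets, and CpG-rich sequence surrounded 50.5% of the promoter and 2.58% of the distal sites. Whether the GC box differed apart from base composition was not tested. The promoter sites more than 500 bp from the TSS lay closer to the distal ones, with AP-1 in 34.9% and the GC box in 12.5% of 2938 sites. GGAATG, the core bound by TEAD factors, was found in 8.24% of CPT-only promoter sites and in 13.4% of distal CPT-only sites (difference -5.14 points, -5.83 to -4.42, adjusted p = 3.2e-38 by the same exact test). The ATF/CRE element was more frequent in the promoter sites than in the distal sites (1.27% against 0.669%, difference 0.596 points, 0.354 to 0.881, adjusted p = 5.5e-07 by the same exact test), but not in those more than 500 bp from the TSS (0.783%, adjusted p = 0.541). The composite was less frequent in the promoter than in the distal sites (0.409% against 1.30%, adjusted p = 1.7e-13 by Fisher's exact test).

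Of the remaining elements, the GC box, to which Sp1 binds, was less frequent in CPT-only than in shared promoter sites (29.3% against 36.8%, difference -7.49 points, -9.05 to -5.94, adjusted p = 8.6e-21 by Fisher's exact test). The CCAAT box of NF-Y was found in 16.6% of CPT-only and 17.4% of shared promoter sites, with an interval of the difference from -2.04 to 0.454 points. For the TEAD core the interval was -0.947 to 0.877 points. At scores of 12 to 20 the TEAD core was more frequent in CPT-only than in shared sites (7.70% against 5.78%, difference 1.93 points, 0.532 to 3.25, adjusted p = 0.0104 by Fisher's exact test). For the p53 motif, present in 1.78% of CPT-only and 1.71% of shared sites, it was -0.380 to 0.493 points. The p53 motif was found in 2.94% of the distal CPT-only sites (difference -1.17 points, -1.49 to -0.807, adjusted p = 3.6e-09 by Fisher's exact test), a difference that did not pass the threshold for the promoter sites more than 500 bp from the TSS (-0.595 points, -1.12 to 0.041, adjusted p = 0.0926 by the same exact test). The CCAAT box was found in 15.6% of the distal sites (difference 0.998 points, 0.103 to 1.92, adjusted p = 0.0382 by the same exact test), a difference that was not kept with a search window of 200 bp.

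**Figure D5:**
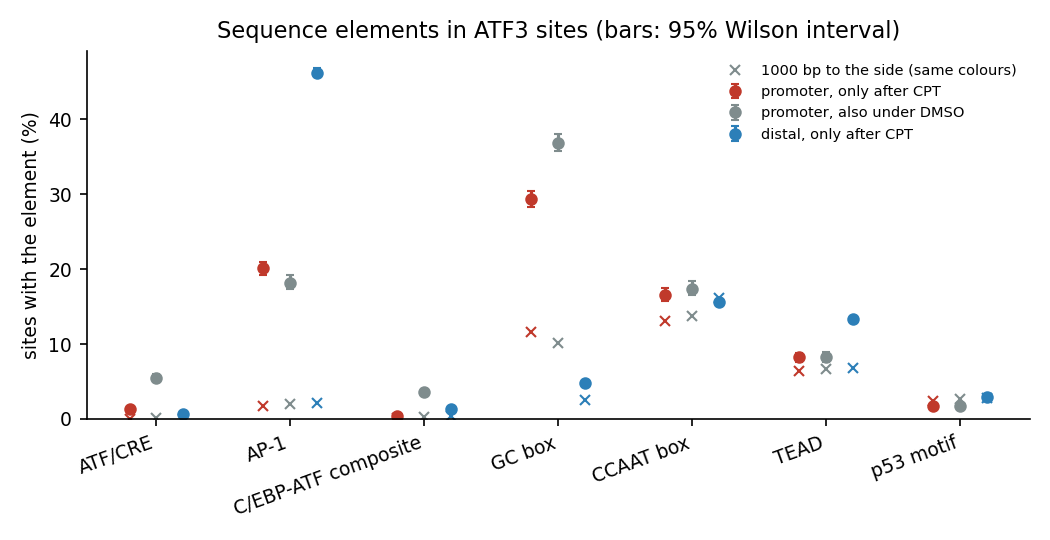
Share of sites with each exact sequence element (%, vertical axis, circles with 95% Wilson intervals) in promoter sites seen only after CPT, promoter sites also bound under DMSO and distal sites seen only after CPT, with the share in windows of equal width 1000 bp to the side as crosses. In the CPT-only promoter sites the AP-1 element (20.1%) and the GC box (29.3%) stand above their side windows (1.73% and 11.6%), and the p53 motif (1.78%) does not (2.44%). The side windows were not matched to the sites in base composition or in distance from the TSS.

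Few CPT-only promoter sites coincided with p53. Of 9211 p53-CPT peaks, 3600 had no base in common with a p53-KO peak. Some of these 3600 overlapped 68 CPT-only sites (0.869%, 0.686 to 1.10). The share was 1.37% in shared promoter sites (difference -0.499 points, -0.865 to -0.153, adjusted p = 0.00775 by Fisher's exact test) and 0.703% in distal CPT-only sites (difference 0.166 points, -0.0387 to 0.412, adjusted p = 0.149 by the same exact test). The first difference was not kept at scores of 12 to 20 (adjusted p = 0.247 by Fisher's exact test), and the second passed the threshold when a p53-CPT centre within 500 bp was counted (adjusted p = 2.9e-04 by the same exact test). The p53-CPT library held 3169743 tags, so that weaker p53 sites were not detectable. Its list began at 7 tags, and many of the p53-CPT peaks at the 68 sites had only 7 or 8.

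The CPT-only sites with the highest scores that overlapped p53 were at FOSL1, PLXNB2, ORAI3, KIF21A and SRA1. At FOSL1, which encodes the AP-1 subunit FRA1, the site had 48 ATF3 tags in ATF3-CPT and the p53-CPT peak had 11 tags. It lay 983 bp downstream of the TSS and held an AP-1 element but no p53 motif. The KIF21A site had 34 ATF3 tags and 7 p53 tags, the lowest number in the p53-CPT list, and no p53 motif. The sites of PLXNB2, a plexin receptor gene (42 ATF3 tags, 13 p53 tags), of ORAI3, a calcium channel gene (34 and 14), and of SRA1, a nuclear receptor co-activator gene (32 and 8), held a p53 motif with at most 3 mismatches. Known p53 targets were also among the 68, named here after their values had been seen. XPC, a DNA damage sensor of nucleotide excision repair, had 29 ATF3 tags and 9 p53 tags 8 bp downstream of the TSS and no KO-free ATF3-Ctrl peak at the gene. GDF15, a stress-induced cytokine gene, had 2 such sites, which lay near different transcript starts. The site at chr19:18496858-18496982 lay 48 bp upstream of a TSS and had 25 ATF3 and 18 p53 tags and no p53 motif. The site at chr19:18484754-18484878 lay 725 bp upstream of another TSS and had 14 ATF3 and 68 p53 tags. This was the highest p53 score of the 68 sites, and the site held a p53 motif with 1 mismatch. PHLDA3, an inhibitor of AKT, had 19 and 50 tags.

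Over the 19756 protein-coding genes examined, 6745 (34.1%) had a CPT-only site within 2 kb of a TSS, and 5980 (30.3%) had a shared promoter site. Both kinds of site were present at 2403 genes. A single CPT-only site was found at 5043 genes (74.8%), a pair at 1364 (20.2%), and up to 7 at a gene. The 4 genes with 6 or 7 sites, named after their values had been seen, were DST, SPECC1, TRAK1 and AHCYL2, and the first 3 also had shared sites. AHCYL2 had 6 CPT-only sites, none over 13 tags, and no basal site. Because promoters lie close together, 998 CPT-only sites (12.8%) were near the TSS of more than 1 gene.

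Most genes with a CPT-only promoter site had another ATF3 site under DMSO. A KO-free ATF3-Ctrl peak was centred within 2 kb of a TSS of 3106 of the 6745 genes (46.0%, 44.9 to 47.2), and a further 1884 genes (27.9%) had one only elsewhere between 20 kb upstream and the end of the gene. No such peak was listed for 1755 genes (26.0%). Over all protein-coding genes the corresponding shares were 35.8%, 26.0% and 38.2%. The share of genes with any basal site was thus 74.0% (72.9 to 75) against 61.8% over all genes and 55.5% over genes without a CPT-only site. It was 82.0% (79.9 to 83.9) for genes with a CPT-only site of 20 tags or more. The search covered the whole gene, so that it was wider for longer genes. Over all genes, those with any basal site had a median length of 36.7 kb and those with none 15.7 kb. The shares were not adjusted for gene length. Without the CPT-only sites that had an ATF3-Ctrl peak within 500 bp, a choice made after the data had been seen, the share with any basal site was 69.0% (67.8 to 70.2). The genes with no KO-free ATF3-Ctrl peak centred in the promoter numbered 3639, and not all of them lacked a shared promoter site, FOSL1 being an example.

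The sites were also divided by the basal binding of the nearest gene. Those at genes with a basal promoter site (3652 sites) had a median score of 13, an AP-1 element in 22.1% and CpG-rich sequence in 46.2%. The sites at genes with no basal site (1936) had a median score of 12, an AP-1 element in 16.3% and CpG-rich sequence in 58.4%. Scores of 20 or more were found at 22.3% of the former and 12.8% of the latter.

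Among the 10 highest-scoring sites at genes without a basal site were those at TP53BP2 (77 tags), PLA2G4D (50), MRPL46 (47), SEZ6 (47), METTL1 (46), TSC22D2 (46), RHOBTB2 (45), PTAFR (45) and PLEKHN1 (45). TP53BP2 encodes ASPP2, which binds p53 and favours its apoptotic targets. METTL1 is a tRNA methyltransferase gene, and TSC22D2 belongs to the TSC22 family of leucine zipper proteins. Both held an ATF/CRE element, and 5 of the 10, among them MRPL46, SEZ6, RHOBTB2 and PTAFR, held an AP-1 element. At 9 of the 10 the nearest ATF3-Ctrl peak lay at least 24096 bp away. The exception was METTL1, where an ATF3-Ctrl peak with 39 tags lay 159 bp away but overlapped an ATF3-KO peak and was for that reason not counted as basal ATF3 binding.

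Genes of several pathway and family lists were then examined, with 34.1% of all protein-coding genes having a CPT-only promoter site, 30.3% a shared one, and a median best CPT-only score of 13 as the background. That background includes families with few sites, such as the olfactory receptors (3.59%). Every list described before the large gene families lay above 34.1%, from 41.7% (AP-1 family) to 63.0% (other bZIP factors). A share above the background was therefore not particular to any of these lists. In the AP-1 family, whose members dimerise with each other and with ATF3, 5 of 12 genes (41.7%) had a CPT-only site and 8 of 12 a shared one, and the median best score of the 5 was 36. JUND had 86 tags, FOSL1 48, ATF3 itself 36, FOS 20 and JDP2 9. At ATF3 the CPT-only site lay 62 bp upstream of a TSS, 1898 bp from the nearest ATF3-Ctrl peak. The highest basal promoter peak of the gene had 189 tags under DMSO, and its highest shared promoter site had 198 after CPT. Whether these were the same site was not examined. The score counts at most 1 tag per position, and the normalized tag count of the basal peak was 313.6, so these scores do not measure a change. At FOS, the site 340 bp upstream lay 1256 bp from an ATF3-Ctrl peak with 18 tags.

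Among the other ATF/CREB, C/EBP and related bZIP factors, 17 of 27 genes (63.0%) had a CPT-only site with a median best score of 14, and 20 of 27 a shared one. CREM, a cAMP-responsive modulator, had 4 CPT-only sites of up to 46 tags, the highest of them with an ATF/CRE element 8 bp downstream of a TSS and 86 bp from an ATF3-Ctrl peak of 16 tags. BACH1, a repressor of antioxidant genes, had 3 of up to 27 tags, MAFG, a small MAF partner, had 1 of 18 tags, and ATF4, the main factor of the integrated stress response, had 3 of up to 17 tags with no basal promoter site.

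In the integrated stress response, which adjusts translation and amino acid supply through ATF4, 14 of 29 genes (48.3%) had a CPT-only site and 24 of 29 (82.8%) a shared one. The median best CPT-only score was 17.5. SLC7A5, an amino acid transporter, had 41 tags, TRIB3, a pseudokinase, 35, DDIT4, an inhibitor of mTORC1, 31, and PSAT1, of serine synthesis, 22. Of the 14 genes, 13 already had an ATF3-Ctrl peak in the promoter, with 84 tags at TRIB3 and 96 tags at DDIT4.

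Among p53 targets, 13 of 28 genes (46.4%) had a CPT-only site with a median best score of 25, and 17 of 28 a shared one. CDKN1A, the p21 inhibitor of cyclin-dependent kinases, had 2 CPT-only sites, and the higher had 57 tags, lay 1806 bp downstream of a TSS, held an AP-1 element and was 110 bp from an ATF3-Ctrl peak of 17 tags. The site of BBC3, which encodes the apoptotic protein PUMA, had 57 tags 291 bp upstream of a TSS, 150 bp from an ATF3-Ctrl peak of 19 tags. The higher of 2 sites at GADD45A, a growth arrest gene, had 39 tags 1669 bp upstream with an AP-1 element, and the higher of 2 at DDB2, of nucleotide excision repair, had 33 tags 1240 bp downstream. Of the 13 genes, 11 had a basal promoter site, 1 (PPM1D) only a site elsewhere, and XPC none.

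Of 55 genes of DNA damage signalling and repair, 29 (52.7%) had a CPT-only promoter site, with a median best score of 12, and 28 had a shared one. ERCC1, of nucleotide excision repair, had 4 sites of up to 27 tags, and PARP1 (25 tags) and PMS2 (20 tags), of strand break and mismatch repair, had no basal site. TOP1, which encodes the target of CPT, had 1 CPT-only site of 16 tags and a basal site of 14 tags elsewhere at the gene. In the cell cycle list 25 of 43 genes (58.1%) had a CPT-only site, with a median best score of 13, and 17 of 43 (39.5%) a shared one. E2F6 (24 tags) and CCNB1 (20 tags) had no basal site, whereas CDKN2C (23 tags) and MYC (23 tags) had basal promoter peaks of 9 and 13 tags.

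Apoptosis genes had CPT-only sites in 15 of 28 cases (53.6%), with a median best score of 14, and shared promoter sites in 10 of 28 (35.7%). Of the 15, 4 had a basal promoter site, 9 a basal site only elsewhere at the gene and 2 none. BCL2, an inhibitor of apoptosis, had 32 tags, CFLAR, an inhibitor of caspase 8, 29, and FADD, the death receptor adaptor, 26. The highest-scoring sites of BCL2 and FADD held an AP-1 element.

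Immediate early and MAPK feedback genes had CPT-only sites in 17 of 33 cases (51.5%, median best score 17) and shared sites in 19. Among the former were ZFP36L1, an mRNA decay factor (45 tags), SPRED2, an inhibitor of RAS signalling (40), IER2 (37) and KLF4, a zinc-finger factor (34). Heat shock and chaperone genes had them in 11 of 20 cases (55.0%, median 17) and shared sites in 12, with 29 CPT-only tags between the divergent genes HSPE1 and HSPD1 at 1 bp from an ATF3-Ctrl peak of 16 tags, and with 27, 25 and 17 tags at HSP90AA1, HSP90AB1 and HSPA8. Genes of the WNT pathway and the colon epithelium had them in 14 of 24 cases (58.3%, median 15.5) and shared sites in 12. LAMB3, a laminin chain, had 48 tags, KRT8, a keratin, 43, SOX9, a factor of intestinal crypts, 24 with no basal site, and LAMA3 20. In the NF-kB and inflammation list 8 of 19 genes (42.1%, median 15.5) had a CPT-only site and 6 a shared one, with CPT-only scores of 20 tags at NFKB2 and NFKBIA, 17 at RELB and 16 at CXCL2.

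In the large gene families the scores were low. Cytoplasmic ribosomal protein genes had CPT-only sites in 30 of 87 cases (34.5%, median best score 14) and shared sites in 36, with CPT-only scores of 25 tags at RPLP0 and lower ones at RPL39 (23) and RPS9 (21). Replication-dependent histone genes had them in 29 of 64 cases (45.3%, median 13) and shared sites in 26, with at most 20 tags at H2AC19. Zinc-finger genes named ZNF had them in 143 of 508 cases (28.1%, median 12) and shared sites in 139, with 43 tags at ZNF562 and 42 at ZNF410, the latter with an ATF/CRE element. Olfactory receptor genes, which are silent in most tissues, had them in 14 of 390 cases (3.59%, median 12) and shared sites in 3 cases (0.769%). The 3 olfactory sites with the highest scores, at OR1J1 (29 tags), OR13J1 (21) and OR51Q1 (19), held an AP-1 element. No test was run on the lists, whose genes were drawn up with earlier results of these data known, so the counts stand as descriptions beside the background.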

How the data were processed

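ATF3 and p53 ChIP-seq was performed in HCT116 cells, with 5 libraries and 1 per condition (3 with the ATF3 antibody). Per the submitters' processing notes, reads were aligned to hg19 with BWA 0.6.1 and peaks were called with HOMER 4.1. Per the file headers, findPeaks was run in factor mode on each library without an input, with limits of 0.001 for the false discovery rate, 4 for the fold over the surrounding 10 kb and 1e-04 for the local p. The deposited score is a number of tags with at most 1 per position. The normalized tag count deposited beside it is a signal per 10000000 tags. The authors also deposited a fold ratio over the local region and its p-value, which entered no test here.

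Total tags, per the file headers, were 15457013 (ATF3-CPT), 12947516 (ATF3-Ctrl), 12820520 (ATF3-KO), 3169743 (p53-CPT) and 1984941 (p53-KO), and the lists began at 9, 9, 11, 7 and 6 tags. Binding under these limits was not detectable.

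Peaks were called overlapping when they shared 1 bp or more. Promoters were taken from GENCODE release 44 mapped to GRCh37, with 78532 starts of protein-coding transcripts of 19756 genes, and no peak exceeded its chromosome in that build. Elements were searched as exact matches on both strands of the peak interval, the p53 motif with at most 3 mismatches in 20 bases. Basal sites of a gene were ATF3-Ctrl peaks without an ATF3-KO overlap from 20 kb upstream to the gene end. Shares carry 95% Wilson intervals, differences Newcombe intervals and single scores exact Poisson intervals, which cover counting error only. Shares were compared by two-sided Fisher tests in scipy 1.17.1, with Benjamini-Hochberg adjustment and a threshold of 0.05. Functions were tested on simulated data.

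Named were the 20 highest-scoring sites, up to 4 per gene list, the 5 highest overlapping p53-CPT and with each bZIP element, the 10 highest at genes without a basal site, and those next to the limits. Members and lists were chosen with earlier results of these data known. Alternatives covered the TSS set, promoter width, overlap, score, search window and position, and the closing section gives their effect. A few sites that met this rule are not reported here.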

Additional observations from a re-analysis of the deposited data

Results flagged for a closer look

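A signal was present in the knockout libraries, which no comparison above uses as a measurement. At promoters, 89 ATF3-CPT peaks that were absent under DMSO shared a base with an ATF3-KO peak, with a median score of 17 tags in ATF3-CPT and of 12 tags in ATF3-KO and a highest ATF3-CPT score of 87. These peaks were not among the CPT-only sites. Of the CPT-only promoter sites, 12 shared a base with a p53-KO peak, with a median ATF3-CPT score of 17 tags and a highest of 63.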

How the results depend on the processing

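The number of CPT-only promoter sites, 7825, was 4887 with a promoter of 500 bp, 4717 with scores of at least 12 and 1402 with scores of at least 20, and it stayed between 5856 and 9520 under the other definitions of the TSS, promoter width and overlap. The number of genes, 6745, was 4440 and 1470 with these score limits and 4709 to 7699 otherwise. The share of genes with another basal site, 74.0%, was 46.0% for promoters only, 96.8% within 100 kb of the gene, 82.0% for sites of 20 tags or more and 69.0% for sites without an ATF3-Ctrl peak within 500 bp. The median of the CPT-only over that of the shared promoter sites was 0.542 in scores and 0.481 in normalized tag counts. Of 74 repeats of the tests, 58 kept the direction and the side of the threshold. Against shared promoter sites at scores of 12 to 20, the ATF/CRE difference was -0.575 points, the p53-CPT overlap -0.376 and the TEAD core 1.93, which passed the threshold (adjusted p = 0.0104 by Fisher's exact test). Within 500 bp of the TSS, AP-1 was -0.380, TEAD 0.0462 and the p53 motif -0.0488 points. With both limits, ATF/CRE was -0.439, TEAD 1.06 and the p53 motif -0.128 points. Without CPT-only sites that had an ATF3-Ctrl peak within 500 bp, TEAD was 0.295 points and the CCAAT box against distal sites 0.942. Also against distal sites, the CCAAT box was 0.00398 points in a 200 bp window and did not pass the threshold. The p53-CPT overlap was 0.486 points with centres within 500 bp and passed it (adjusted p = 2.9e-04 by Fisher's exact test). In members over 500 bp from the TSS, the ATF/CRE element was 0.114, the CCAAT box -1.35 and the p53 motif -0.595 points. None of these values for members over 500 bp from the TSS passed the threshold. The cause was not tested. The repeats with the basic transcripts, without ATF3-Ctrl neighbours, over 500 bp from the TSS and with both limits were chosen after seeing the data. No paired analysis was possible because each condition had 1 library.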
